A study of Mus musculus with 5 samples.

Results

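Medium-length RNA from whole testes of C57BL/6J mice was compared name by name between a library made after treatment with the enzyme labelled Tobacco alkaline phosphatase (TAP) and a library made from untreated RNA. A name here is an entry of the RepeatMasker annotation to which the authors assigned reads: an RNA (U5 snRNA, SNORD55), a tRNA gene or a repeat family. Text behind a slash and a leading rRNA_ were stripped, and every name with 20 or more reads in the 2 libraries summed was used, which gave 255 names of 654 that had any read there and of 1042 listed anywhere in the series. One of the 255, 5.8S rRNA, served as the denominator, and the remaining 254 were compared. The smallest sum that was included was 21 reads (6 names) and the largest that was left out was 19 reads (6 names).

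Each library was made from 600 ng of total RNA of testes that the study lists under postnatal day 7. TAP was used at 25 U for 1.5 h, and the sources used here do not say whether the untreated RNA went through the same incubation and extraction, so the enzyme and those steps cannot be told apart. Each treatment of testis RNA was read in 1 library, so no test between treatments was possible and the 95% intervals given with each ratio cover counting error only. Adaptor ligation on RNA reads the 5' end: only a 5' monophosphate accepts the 5' adaptor of the kit, and inserts of 115 to 255 nt were cut from the gel. The tables list no protein-coding genes, so the tissue could not be set against marker genes.

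RNAs of this size carry 3 kinds of 5' ends. RNA polymerase II transcripts such as most spliceosomal snRNAs start with a cap, primary transcripts of RNA polymerase III such as 5S rRNA, tRNA precursors and SINE RNAs start with a triphosphate, and RNAs that are cut or trimmed out of a longer transcript, such as 5.8S rRNA, mature tRNAs and most snoRNAs, start with a monophosphate. The abbreviation TAP is commonly used for tobacco acid pyrophosphatase, an enzyme that opens caps and triphosphates to a monophosphate, and the labels spell it differently. A ratio between the libraries can therefore depend on the ends an RNA carries, on its amount and on how it was recovered at its size. Which of these set a given ratio was not tested.

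Sequences of the small RNAs on which the comparison turns are shown from the GENCODE M21 annotation of the mouse genome (GRCm38), 5' to 3' as DNA letters. The first set holds 3 of the snRNAs with high ratios of TAP to untreated. Capitals mark AATTT, the start of the binding site of Sm-type proteins, in each of them, and ACTTACCTG, which pairs with the 5' splice site, in U1. Rnu1a1 (chr11:87422867-87423030, plus strand, 164 nt) lies in an intron of Tex14 on the same strand, Rnu1b6 lies at chr3:96460024-96460189 (minus strand, 166 nt) and Rnu7 at chr6:124741225-124741286 (minus strand, 62 nt).
Rnu1a1: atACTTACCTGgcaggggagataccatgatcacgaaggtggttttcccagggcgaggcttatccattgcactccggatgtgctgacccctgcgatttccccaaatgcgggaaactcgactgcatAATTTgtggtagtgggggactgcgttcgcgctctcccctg
Rnu1b6: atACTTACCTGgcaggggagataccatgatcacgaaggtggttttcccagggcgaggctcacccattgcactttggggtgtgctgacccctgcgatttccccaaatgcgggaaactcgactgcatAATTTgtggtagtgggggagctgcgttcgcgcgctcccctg
Rnu7: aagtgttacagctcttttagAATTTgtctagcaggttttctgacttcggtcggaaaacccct

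Rnu1a1 and Rnu1b6 are identical at 158 aligned positions and differ by 6 mismatches and 2 gap positions, so RepeatMasker separates the names U1a1 and U1b6 by few bases. The letters of these motifs are not particular to the genes shown: AATTT stands in 30.4% of the 1383 annotated snRNA transcripts and ACTTACCTG in 3.98%, on the transcribed strand.

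The second set holds box C/D snoRNAs at both ends of the range of ratios and 1 box H/ACA snoRNA. Capitals mark TGATGA, a form of box C, and CTGA, box D, in the C/D snoRNAs, and the ACA box in Snora64. Snord104 (chr11:106500993-106501062, plus strand) and Snord37 (chr10:81178950-81179013, plus strand, in an intron of Eef2) had ratios near or above 1. Snord65 (chr11:62604515-62604586, plus strand, in an intron of 2410006H16Rik) had a low ratio, and Snora64 (chr17:24720772-24720905, plus strand, within Rps2) had a high one.
Snord104: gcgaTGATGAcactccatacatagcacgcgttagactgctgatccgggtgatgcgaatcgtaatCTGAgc
Snord37: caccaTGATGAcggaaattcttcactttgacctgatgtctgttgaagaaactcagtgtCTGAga
Snord65: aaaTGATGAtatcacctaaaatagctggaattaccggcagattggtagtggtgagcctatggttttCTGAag
Snora64: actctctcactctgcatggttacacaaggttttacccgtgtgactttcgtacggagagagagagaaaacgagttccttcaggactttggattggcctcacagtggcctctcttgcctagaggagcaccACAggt

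The 3 C/D snoRNAs shown share the same layout, with box C ending at base 11 or earlier and box D followed by 2 bases. Snord99, not printed here, differs from them: box C ends at base 15 and box D is followed by 8 bases. Its ratio was 0.750. Among 1507 annotated snoRNA transcripts, TGATGA stands in 26.1%, CTGA in 79.5% and ACA in 94.0% (transcribed strand, anywhere in the transcript).

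The untreated library held 1160933 listed reads, that is reads given a name, and the TAP library 1067851. In the untreated library, 5.8S rRNA took 27.2% (27.1 to 27.3%) of them (exact binomial 95% interval), and in the TAP library 50.2% (50.1 to 50.3%). Levels are given as RPM, reads per 1000000 reads of 5.8S rRNA in the same library, which is the unit of the study, and ratios are TAP over untreated in RPM. Counted per listed read instead, every ratio is 1.84 times as large, so a name below 1 on one scale can be above 1 on the other, and both are given where they part. A count of 3 reads, taken as the limit that a count of 0 allows, is 9.49 RPM in the untreated library and 5.60 RPM in the TAP library.

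Of the 254 names, 66 (26.0%) were at least 2-fold higher in the TAP library per 5.8S rRNA read and 129 (50.8%) at least 2-fold lower. Per listed read, 86 names (33.9%) were higher and 93 (36.6%) lower. A name that was higher per 5.8S read was higher on both scales, and a name that was lower per listed read was lower on both. The median ratio over all 254 names was 0.474 per 5.8S read and 0.874 per listed read. Of the 254 names, 176 had 20 or more reads in each library, 51 reached 20 reads in the TAP library alone, 13 in the untreated library alone and 14 in neither. A name that entered through 1 library alone had more reads in that library, which favours a difference between them. The counts and medians over names are therefore descriptions of the names used. Among the 176 names with 20 or more reads in each library, 23 were higher and 111 lower per 5.8S read.

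**Figure D1:**
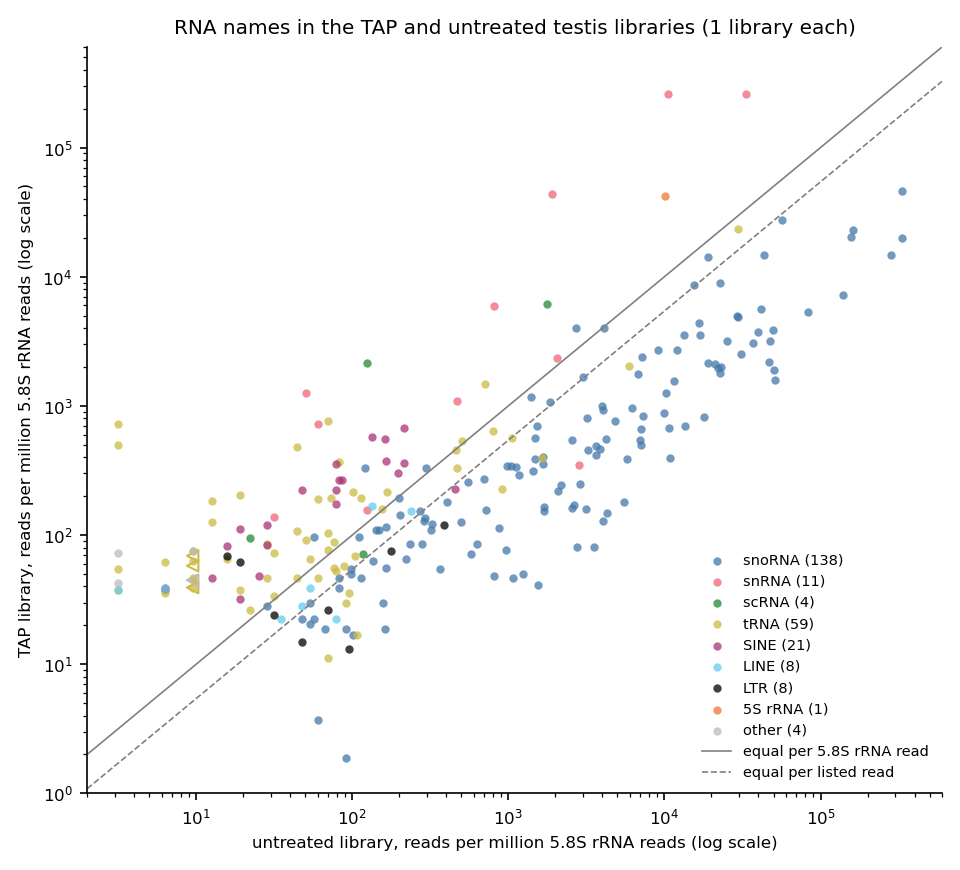
Each point is 1 of 254 names, with its RPM without enzyme on the x axis and after TAP on the y axis, both on log scales and coloured by class; open triangles are names with 0 untreated reads, placed at the limit of 3 reads. snRNA names other than snRNA_snRNA lie above the solid line of equal level per 5.8S read, most snoRNA names lie below both lines, and tRNA names spread on either side.

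The snRNAs had the highest ratio of summed reads of the classes. They made up 1.42% (1.40 to 1.45%) of the listed reads without enzyme and 28.9% (28.8 to 29.0%) after TAP, and their summed reads gave a ratio of 11.004 per 5.8S read (10.8 to 11.2). Of the 11 snRNA names used, 8 were higher after TAP, against 26.0% of all names. Of the others, 1 was lower, against 50.8% of all names, and 2 were in between. Of the 8 names with 20 or more reads in each library 5 were higher, against 23 of 176 over all classes. The median over the 11 names was 7.33.

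U5 snRNA, the spliceosomal RNA that holds both exons during splicing, had 3322 reads without enzyme and 138302 after TAP, or 10508 and 258017 RPM (2861 and 129514 per 1000000 listed reads). It was 24.6 times as high after TAP (23.7 to 25.4) and took 44.8% (44.7 to 45.0%) of all snRNA reads there, up from 20.1% (19.5 to 20.7%). U7 snRNA, which directs the processing of histone mRNA 3' ends, had few reads, 19 and 390, with a ratio of 12.1 (7.65 to 20.3). U7 is shorter in the annotation, at 62 nt, than the inserts that were cut from the gel. U1a1, a form of the U1 snRNA that recognises 5' splice sites, had 257 untreated and 3192 TAP reads, a ratio of 7.33 (6.45 to 8.35). Its near-identical variant U1b6 had 10 and 74 reads and a ratio of 4.36 (2.24 to 9.48). The intervals of the U1 variants overlap, and each lies below that of U5.

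U4 and U6, which enter the spliceosome as a base-paired duplex, had much smaller ratios. U4 is capped by RNA polymerase II synthesis like U5 and U1, and it had 647 untreated and 1267 TAP reads, or 2047 and 2364 RPM. Its ratio of 1.15 (1.05 to 1.27) lay far below those of U1a1, U5 and U7. U6, a polymerase III transcript with a methylated triphosphate end, had 39 and 84 reads and a ratio of 1.27 (0.859 to 1.91), an interval that holds 1. Per listed read, U4 was 2.13 and U6 2.34 times as high after TAP, so their call depends on the denominator.

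Another 5 snRNA names identify no particular RNA. Of these, snRNA_small had the most reads, 10580 without enzyme and 140370 after TAP, with a ratio of 7.82 (7.67 to 7.98). Together, snRNA_small and U5 held 90.4% (90.3 to 90.5%) of the snRNA reads of the TAP library. The name snRNA_RNA went from 598 to 23235 reads (ratio 22.9, 21.1 to 24.9) and snRNA_musculus from 16 to 673 (ratio 24.8, 15.2 to 43.7), and both intervals overlap that of U5. A weaker difference was seen for snRNA_nuclear, with 148 and 584 reads (ratio 2.33, 1.94 to 2.81). In the opposite direction, snRNA_snRNA had 891 untreated and 188 TAP reads and was 8.04-fold lower per 5.8S read and 4.36-fold lower per listed read. It was the one of the 11 names with fewer reads after TAP. Names of U2, U11, U12 and U4atac did not reach 20 reads, and the capped snoRNA U3, listed as snRNA_U3B, had 1 read without enzyme and 0 after TAP.

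**Figure D2:**
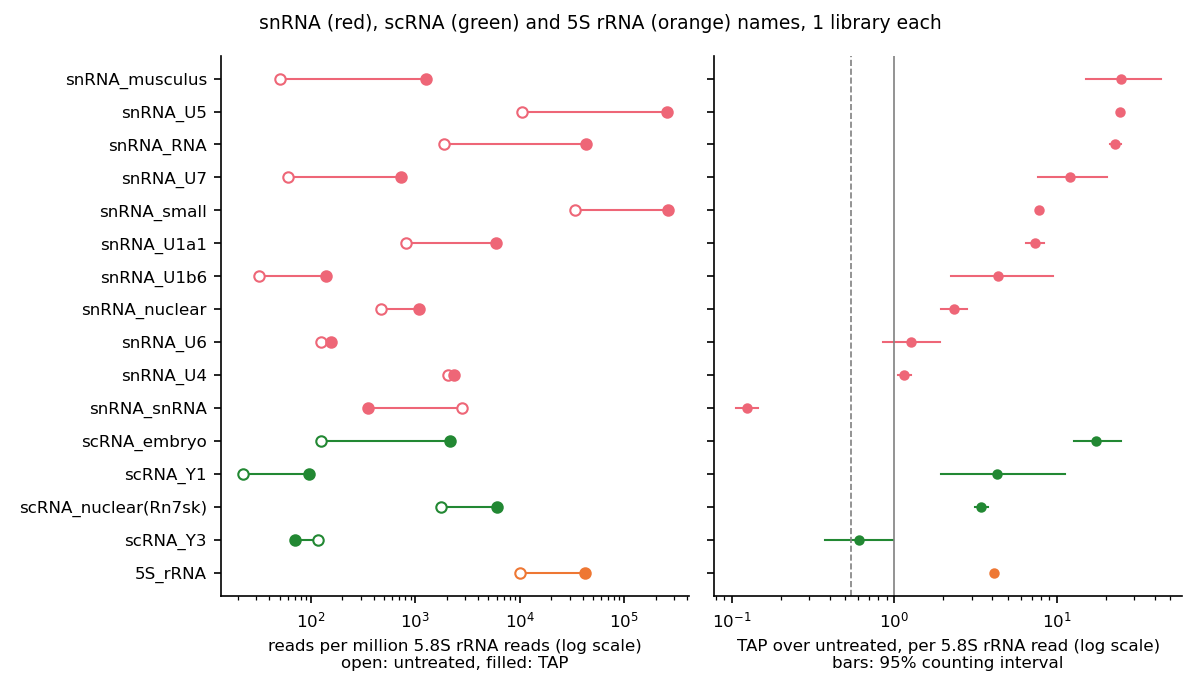
The left panel gives RPM in the untreated (open) and TAP (filled) libraries for 16 snRNA, scRNA and 5S rRNA names on a log scale, and the right panel gives the ratio with its 95% counting interval; the solid line marks equal level per 5.8S read and the dashed line equal level per listed read. U5, snRNA_RNA and snRNA_musculus share ratios from 22.9 to 24.8, U4 and U6 lie near 1, and snRNA_snRNA and Y3 lie below 1.

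Among the short RNA polymerase III transcripts outside the tRNAs, 5S rRNA and 7SK were higher after TAP. 5S rRNA, the smallest ribosomal RNA, had 3193 untreated and 22417 TAP reads, 10100.5 and 41821 RPM, and a ratio of 4.14 (3.99 to 4.30). Listed as scRNA_nuclear(Rn7sk), 7SK, which holds the elongation factor P-TEFb in an inactive complex, had 562 and 3276 reads and a ratio of 3.44 (3.14 to 3.77). The annotated 7SK RNA is 331 nt long, above the upper limit of the inserts, and the table does not say which stretch of it was read.

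The Y RNAs, which bind the Ro60 protein, differed from each other. Y1 had 7 untreated and 51 TAP reads, a ratio of 4.30 (1.94 to 11.2). Y3 had nearly equal counts, 37 and 38, and a ratio of 0.606 (0.375 to 0.979). The intervals of Y1 and Y3 do not overlap, on counts that are small in both libraries. Because Y1 entered through the TAP library alone, this gap carries little weight. Reads of other Y RNA names were not added to Y1 or Y3. Summed over the 4 Y RNA names listed, of which these 2 were used, 49 and 94 reads gave a ratio of 1.13 (0.793 to 1.63). To show how alike these RNAs are, the annotated Rny1 (chr6:47788069-47788180, minus strand) and Rny3 (chr6:47781624-47781725, plus strand) are printed with no capitals, since no motif was searched in them. They are identical at 81 aligned positions, with 21 mismatches and 10 gap positions.
Rny1: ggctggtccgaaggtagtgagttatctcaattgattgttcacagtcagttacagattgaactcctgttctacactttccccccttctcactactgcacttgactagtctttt
Rny3: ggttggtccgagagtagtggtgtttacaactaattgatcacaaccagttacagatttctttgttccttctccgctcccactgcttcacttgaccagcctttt

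The name scRNA_embryo, which identifies no RNA, had 39 and 1160 reads and the highest ratio of the 4 scRNA names, 17.5 (12.8 to 24.8). Of these 4 names, 3 were called higher, against 26.0% of all names, and Y3 was not called. Names of 7SL, 4.5S, RMRP, RPPH1 and vault RNA did not reach 20 reads, and BC1 (BC1_Mm) had 0 and 4 reads.

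The snoRNAs made up 69.7% (69.6 to 69.8%) of the listed reads without enzyme and 16.1% (16.1 to 16.2%) after TAP. Of 138 snoRNA names, 115 were at least 2-fold lower in the TAP library per 5.8S read, against 50.8% of all names, a background of which they themselves form the larger part. Only 2 were higher, against 26.0% of all names, and 21 lay in between. Per listed read, 87 of 138 were lower, against 36.6% of all names, and 5 were higher, against 33.9%. The median ratio was 0.180 per 5.8S read and 0.332 per listed read.

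Box C/D snoRNAs, which guide methylation of ribose in rRNA and snRNA, had lower ratios than box H/ACA snoRNAs, which guide pseudouridine formation. Summed over all C/D names, 704814 untreated and 142969 TAP reads gave a ratio of 0.120 (0.119 to 0.120), and H/ACA names with 25948 and 12815 reads gave 0.291 (0.285 to 0.298). By name, 76 of 83 C/D snoRNAs (91.6%) and 28 of 44 H/ACA snoRNAs (63.6%) were lower per 5.8S read, against 50.8% of all names. Per listed read the split was wider, with 69 of 83 C/D (83.1%) and 9 of 44 H/ACA names (20.5%) lower, against 36.6% of all names, so the H/ACA share lay below that of all names on this scale. The median ratio of the C/D names was 0.114 and that of the H/ACA names 0.428, and 38 C/D names but no H/ACA name had a ratio of 0.1 or less. A further 11 snoRNA names, such as snoU83B and snoZ17, give no box, and all 11 were lower, with a median of 0.129.

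The 4 snoRNA names with the most untreated reads were C/D, and the next was snoU83B, whose name gives no box. SNORD12 had 105150 untreated and 24524 TAP reads, or 332623 and 45752 RPM, and was 7.27-fold lower per 5.8S read and 3.94-fold lower per listed read. SNORD55 had nearly as many untreated reads, 104688, but 10709 after TAP, a 16.6-fold lower level. With 89831 and 7958 reads, SNORD50 was 19.1-fold lower. These 3 names held 37.0% (36.9 to 37.2%) of the snoRNA reads without enzyme and 25.0% (24.8 to 25.2%) after TAP. SNORD43 (51071 and 12400 reads) had a ratio of 0.143, like that of SNORD12, and snoU83B (49591 and 10833 reads) one of 0.129. By symbol, snoU83B was matched to Snord83b, as was the C/D name SNORD83, which had 471 and 209 reads and a ratio of 0.262. SNORD88 kept a larger part of its level, with 17885 and 14709 reads and a ratio of 0.485 (0.475 to 0.496), and ranked second among snoRNAs in the TAP library.

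The lowest ratios among snoRNA names with 100 or more reads belonged to SNORD65, SNORD51, snoZ39, SNORD18 and SNORD105. SNORD65, a snoRNA from an intron of 2410006H16Rik, had 1111 untreated and 43 TAP reads and was 43.8-fold lower (ratio 0.0228, 0.0164 to 0.0310). SNORD51 had 488 and 22 reads and snoZ39 had 864 and 43, with ratios of 0.0266 and 0.0294. SNORD18 was the most abundant of the 5, with 16096 and 855 reads and a ratio of 0.0313 (0.0292 to 0.0336). SNORD105 had 1283 and 69 reads and a ratio of 0.0317. Between SNORD65 and SNORD37, which have sequences of like length and the same boxes, the ratio differed by more than the counting intervals allow.

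A few C/D names stood at the other end of the range. SNORND104, matched to Snord104, had 855 untreated and 2136 TAP reads and was the one C/D name above 1, with a ratio of 1.47 (1.36 to 1.60) and of 2.72 per listed read. SNORD37 had 1291 and 2162 reads and a ratio of 0.988 (0.921 to 1.06). SNORD99, from the Snhg12 locus, had 5984 and 7614 reads and a ratio of 0.750 (0.725 to 0.776). These 3 were also the C/D names with more reads after TAP than before.

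Among H/ACA names, SNORA64 had 38 untreated and 178 TAP reads and a ratio of 2.76 (1.94 to 4.03), the highest of any snoRNA name with 100 or more reads. SNORA77 had a ratio of 5.90, on 2 and 20 reads (1.43 to 52.0). SNORA65 (94 and 176 reads, ratio 1.10, 0.855 to 1.43) and SNORA63 (63 and 103 reads, ratio 0.964, 0.698 to 1.34) had intervals that hold 1. At the bottom, SNORA68 had 6013 and 1144 reads and was 8.91-fold lower, as low as the C/D median. SNORA73, the most abundant H/ACA name, lay near the H/ACA median with 7138 and 4803 reads and a ratio of 0.397. SNORA68, SNORA73 and SNORA77 were picked out after their values were seen. The H/ACA names had fewer reads, with a median of 137 in both libraries summed against 1926 for C/D names, and so wider intervals.

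Box and length go together in snoRNAs. Of the 55 C/D names with an annotated length, 52 were shorter than 115 nt, the lower limit of the inserts (median 77 nt), whereas all 25 H/ACA names with a length fell within 115 to 255 nt (median 133 nt). The other 3 C/D names with a length fell within the range of the inserts: SNORD22 (126 nt), SNORD15 (146.5 nt) and SNORD17 (238 nt). Their ratios were 0.158, 0.136 and 0.130. A comparison of ratio with length is void, because a length was found for 58.7% of the snoRNA names, under the 80% required. Whether the ratio goes with box or with length was not tested.

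**Figure D3:**
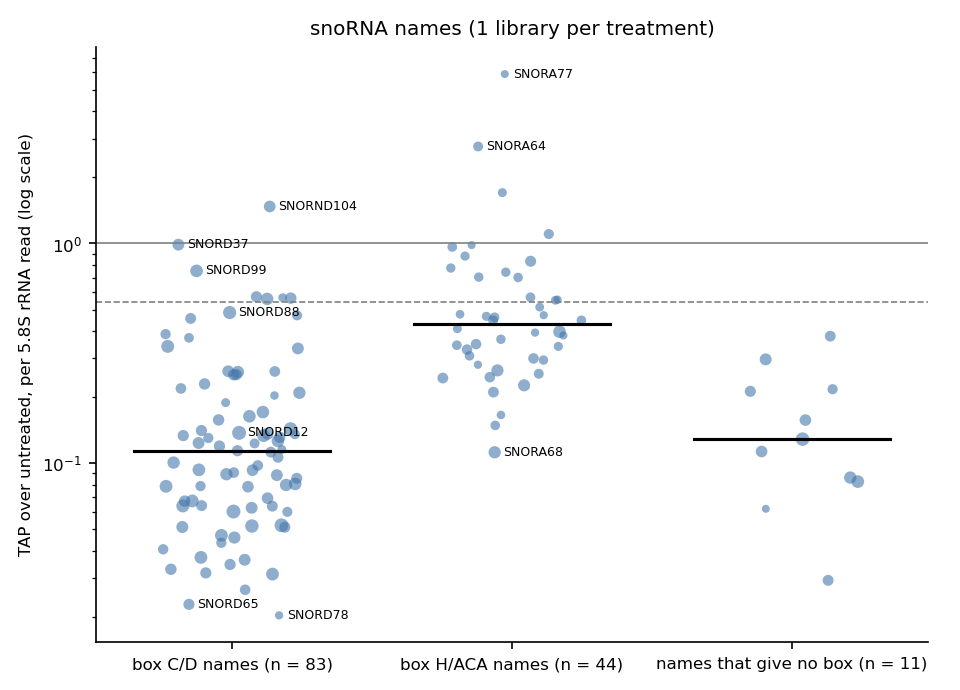
Each point is 1 of 138 snoRNA names, with the ratio of TAP to untreated per 5.8S rRNA read on a log scale, grouped by the box that the name gives; point size grows with the reads, black bars are medians (0.114, 0.428 and 0.129), the solid line marks equal level per 5.8S read and the dashed line equal level per listed read. C/D names reach from 0.0203 (SNORD78) to 1.47 (SNORND104), and H/ACA names from 0.112 (SNORA68) to 5.90 (SNORA77).

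The tRNA names differed little in sum and widely by name. Their reads went from 14147 to 19840, a ratio of 0.827 per 5.8S read (0.809 to 0.845) and of 1.52 per listed read. This sum was set by 1 name: tRNA_chr3.trna745-GluCTC held 65.8% (65.0 to 66.6%) of the untreated tRNA reads and 62.7% (62.0 to 63.4%) of those after TAP, with 9307 and 12441 reads and a ratio of 0.788 (0.767 to 0.810). Of the 59 tRNA names used, 28 were at least 2-fold higher after TAP, against 26.0% of all names. Another 7 were lower, against 50.8%, 24 were in between, and the median ratio was 1.81. Per listed read, 38 were higher, against 33.9% of all names, and 4 lower, against 36.6%. These counts rest on names with few untreated reads: 28 of the 59 reached 20 reads in the TAP library alone. Of the 24 with 20 or more in each library, 5 were higher and 3 lower per 5.8S read. Over all classes, 23 and 111 of 176 such names were. The names are those of tRNA genes, and gene copies with the same sequence cannot be told apart by a read.

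The 2 highest ratios were those of tyrosine tRNA genes, whose precursors carry an intron that is removed by splicing. Without a minimum of reads, the 10 TyrGTA names had 5 untreated reads and 766 after TAP, a ratio of 90.4 (38.5 to 279). Most came from chr5.trna109, with 1 untreated read and 391 TAP reads (ratio 231, 41.1 to 9131), and chr14.trna191, with 1 and 268 (ratio 158, 28.1 to 6266). Their untreated level of 3.16 RPM is under the limit of 3 reads, so these intervals are wide and the ratios themselves are uncertain. Of the other 3, chr13.trna106 had 2 and 33 reads (ratio 9.73), chr3.trna28 had 0 and 31, and chr13.trna961 had 0 and 21. Set against 3 untreated reads, these last names had ratios of 6.09 and 4.13, and the counting error of the TAP reads as well puts their lower 95% limits at 4.67 and 3.07.

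The other tRNA families in which genes with introns are known are ArgTCT, IleTAT and LeuCAA. The 5 ArgTCT genes of the RefSeq annotation span from 74 to 87 bases, so not every one need hold an intron, and the names were not matched to them. Among the 4 ArgTCT names used, chr11.trna1818 had 1 untreated and 29 TAP reads (ratio 17.1) and chr3.trna628 had 6 and 110 (ratio 10.8, 4.81 to 30.1). The others were chr19.trna637 with 5 and 35 (ratio 4.13) and chr1.trna730 with 14 and 58 (ratio 2.44). IleTAT chr17.trna516 had 3 and 25 reads (ratio 4.91, 1.50 to 25.4). The 4 LeuCAA names had 6 and 24 reads in sum (ratio 2.36, 0.939 to 7.06), and none reached 20 reads. Over the Tyr, ArgTCT, IleTAT and LeuCAA names together, 40 untreated and 1057 TAP reads gave a ratio of 15.6 (11.4 to 21.9). The 10 names used had 14 or fewer untreated reads each and entered through the TAP library alone, so their calls as higher carry no weight as a count. The other tRNA names gave 0.785 (0.768 to 0.803), and the 49 of them used had a median of 1.21. Of these 49, 18 were higher and 7 lower, against 26.0% and 50.8% of all names. The 24 names with 20 or more reads in each library were all among them.

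High ratios also occurred in families outside this list. AsnGTT chr5.trna1043 went from 4 to 98 reads (ratio 14.4, 5.47 to 54.1). ArgACG chr14.trna209 went from 22 to 409 (ratio 10.96, 7.14 to 17.7), and LeuTAA chr13.trna991 from 14 to 257 (ratio 10.8, 6.34 to 20.1). These 3 have more untreated reads than the tyrosine genes and narrower intervals. However, the AsnGTT and LeuTAA names also entered through the TAP library alone. Of the 3, ArgACG chr14.trna209 was the one with 20 or more reads in each library. The selenocysteine tRNA, named SeC(e)TCA and known to keep the triphosphate of its first nucleotide when mature, had 225 and 798 reads, 712 and 1489 RPM, and a ratio of 2.09 (1.80 to 2.44). It was the third most abundant tRNA name after TAP.

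The 7 names that were called lower were 2 GlyGCC genes and 1 gene each of GluTTC, GlnCTG, LeuAAG, ValAAC and ValCAC. GluTTC chr9.trna961, the second name by reads in both libraries, had 1882 and 1091 reads and was 2.92-fold lower (ratio 0.342, 0.317 to 0.369). GlyGCC chr8.trna887 had 522 and 210 reads and was 4.21-fold lower, and GlnCTG chr9.trna342 had 286 and 122 and was 3.97-fold lower. GlyCCC chr3.trna755 (335 and 301 reads, ratio 0.530) and GluTTC chr14.trna359 (148 and 176, ratio 0.701) were not called. Per listed read, chr8.trna887 and chr9.trna342 were still at least 2-fold lower, and GluTTC chr9.trna961 was not.

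Names with the same anticodon could differ in ratio, whether or not the genes behind them do. GlyGCC chr8.trna560 had 36 untreated and 104 TAP reads and a ratio of 1.70 (1.16 to 2.56), against 0.237 (0.201 to 0.279) for chr8.trna887. The ValAAC genes chr4.trna1183 (26 and 198 reads, ratio 4.49, 2.98 to 7.05) and chr3.trna48 (22 and 6, ratio 0.161, 0.0534 to 0.409) lay on opposite sides of 1. Both pairs were picked out after their values were seen. In the RefSeq annotation all 430 tRNA genes span from 59 to 107 bases, below the 115 nt of the shortest inserts.

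**Figure D4:**
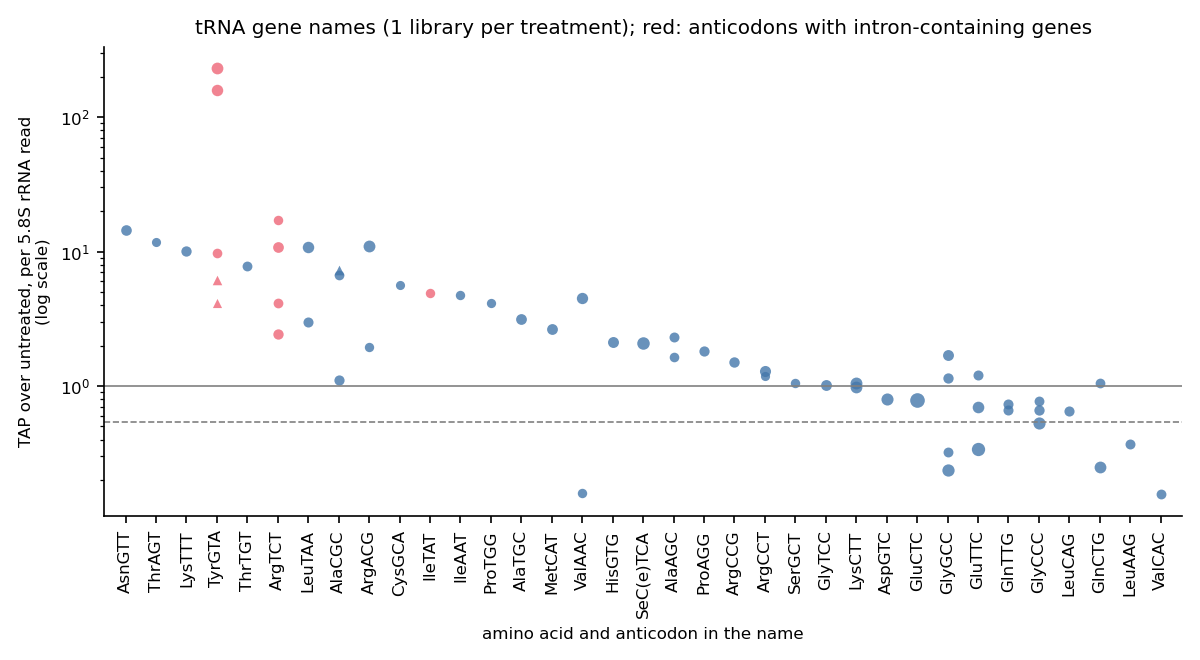
Each point is 1 of 59 tRNA gene names, placed by the amino acid and anticodon in its name in order of the median ratio, with the ratio of TAP to untreated per 5.8S rRNA read on a log scale; point size grows with the reads, triangles are names with 0 untreated reads, set against 3 reads, and the solid and dashed lines mark equal level per 5.8S and per listed read. The highest TyrGTA names reach 231 and 158, while ValCAC, LeuAAG and the larger GlnCTG name lie below 0.5.

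SINEs are short retrotransposons transcribed by RNA polymerase III from a promoter derived from tRNA (B2, ID) or 7SL RNA (B1), and this method was designed to read their RNA. SINE names had 694 reads without enzyme and 2878 after TAP, a ratio of 2.45 (2.25 to 2.66). Of the 21 names used, 16 were at least 2-fold higher, against 26.0% of all names, and none was lower; per listed read, 20 were higher, against 33.9%. Of the 12 SINE names with 20 or more reads in each library, 9 were higher per 5.8S read, against 23 of 176 over all classes. Another 8 SINE names reached 20 reads in the TAP library alone. The median ratio was 3.14.

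The names were also set side by side by family. The B2 subfamilies were close to each other: B2_MM2 went from 68 to 362 reads (ratio 3.14, 2.42 to 4.13), B2_MM1o from 51 to 297 (3.43, 2.54 to 4.72), B2_MM1a from 26 to 143 (3.24, 2.13 to 5.13) and B2_MM1t from 25 to 120 (2.83, 1.83 to 4.55). All 4 intervals overlap. B3 (42 and 309 reads, ratio 4.34, 3.14 to 6.14) and B3A (15 and 120, 4.72) were a little higher, as were B4 (6 and 60, 5.90) and B4A (25 and 191, 4.51, 2.96 to 7.14). The summed B3 and B4 ratios were 4.44 (3.36 to 5.96) and 4.78 (3.28 to 7.18), and that of B2 was 3.20 (2.71 to 3.79).

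B1 names had lower ratios where they had most reads. B1_Mm (62 and 163 reads, ratio 1.55, 1.15 to 2.11) and B1_Mus2 (68 and 194, 1.68, 1.27 to 2.25) were not called, and B1_Mus1 (52 and 200, 2.27, 1.66 to 3.14) was higher. The B1_Mur subfamilies had from 17 to 45 TAP reads each and ratios from 1.67 (B1_Mur3) to 6.19 (B1_Mur2, 2 and 21 reads, 1.51 to 54.5). Summed over all B1 names the ratio was 1.90 (1.62 to 2.23), an interval that lies below those of B2, B3 and B4. Among the smaller families, ID_B1 had 9 and 64 reads (ratio 4.19, 2.08 to 9.59), PB1 25 and 94 (2.22, 1.41 to 3.60), PB1D10 5 and 44 (5.19) and PB1D9 8 and 26 (1.92, 0.843 to 4.90).

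FAM, a monomer related to 7SL RNA, was the exception. It had 143 untreated and 122 TAP reads, 452 and 228 RPM, and a ratio of 0.503 (0.392 to 0.645), just above the limit for a call. FAM held 20.6% (17.7 to 23.8%) of the untreated SINE reads, more than any other SINE name there, and 4.24% (3.53 to 5.04%) after TAP. It was the one of the 21 names below 1 per 5.8S read. Per listed read its ratio was 0.928, and the other 20 names were at least 2-fold higher.

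LINE and LTR names had few reads, and 8 of each class were used, of 71 LINE and 187 LTR names listed. LINEs are long retrotransposons transcribed by RNA polymerase II. L1_Mm had 75 untreated and 83 TAP reads (ratio 0.653, 0.472 to 0.904) and L1_Mus3 42 and 90 (ratio 1.26, 0.867 to 1.87). Among the young L1 subfamilies, L1Md_A (25 and 12 reads, ratio 0.283, 0.130 to 0.585) was lower, while L1Md_F2 (17 and 21, 0.729), L1Md_T (15 and 15, 0.590) and L1_Mus1 (11 and 12, 0.643) had intervals that hold 1. L1_Mur3 (2 and 21 reads, ratio 6.19, 1.51 to 54.5) and MusHAL1 (1 and 20, 11.8, 1.89 to 489) were called higher, each on 1 or 2 untreated reads.

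Among LTR elements, the IAP retroviruses were lower after TAP. IAPEz-int, the internal part of an IAP provirus, had 123 and 64 reads and was 3.26-fold lower (ratio 0.307, 0.223 to 0.418). Its terminal repeat IAPLTR1_Mm had 30 and 7 reads and was 7.27-fold lower (ratio 0.138, 0.0510 to 0.320). Per listed read IAPLTR1_Mm kept a ratio of 0.254, and IAPEz-int, at 0.566, was no longer 2-fold lower. The internal part and the terminal repeat of ERVB4_1B (56 and 40, 22 and 14 reads) had ratios of 0.421 and 0.375, and MT-int (15 and 8 reads) had 0.315. In the other direction, MTD (5 and 37 reads, ratio 4.36, 1.71 to 14.2) and MMVL30-int (6 and 33, 3.24, 1.34 to 9.47) were higher, and ORR1A2 (10 and 13, 0.767) was not called. So 5 of the 8 LTR names were lower and 2 higher, against 50.8% and 26.0% of all names. Per listed read, 1 was lower and 2 higher, against 36.6% and 33.9% of all names. The median ratio was 0.691 over the 8 LINE names and 0.398 over the 8 LTR names, of which 2 in each class had 20 or more reads in each library. Summed over all names listed, the ratio was 1.22 (1.04 to 1.43) for LINE and 0.839 (0.745 to 0.947) for LTR reads, so the LINE sum lay above 1 and the LINE median below it.

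**Figure D5:**
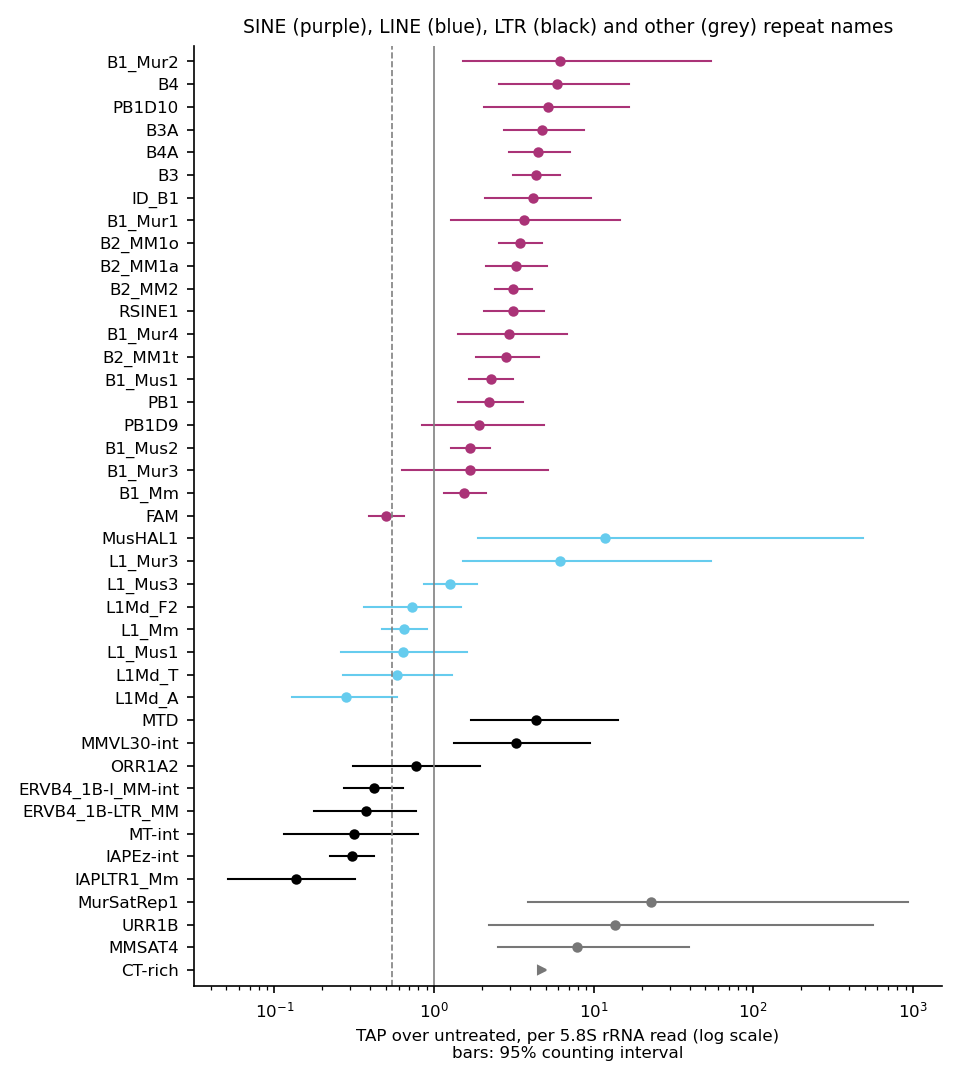
Points give the ratio of TAP to untreated per 5.8S rRNA read on a log scale for 21 SINE, 8 LINE, 8 LTR and 4 other repeat names, bars are 95% counting intervals, the triangle is a name with 0 untreated reads, set against 3 reads, and the solid and dashed lines mark equal level per 5.8S and per listed read. SINE names other than FAM lie to the right of the solid line, while 6 of 8 LINE names lie at 1.26 or lower and 5 of 8 LTR names lie at 0.421 or lower.

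The 4 remaining names are satellite or simple repeats and a DNA transposon relic, and all were called higher on 3 or fewer untreated reads, having entered through the TAP library alone. MurSatRep1 had 1 and 39 reads (ratio 23.0, 3.89 to 931), URR1B 1 and 23 (13.6, 2.20 to 559) and MMSAT4 3 and 40 (7.86, 2.50 to 39.7). CT-rich had 0 and 24 reads, a ratio of 4.72 set against 3 untreated reads, with a lower 95% limit of 3.55. These 4 names were described after their values were seen.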

How the data were processed

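Testis RNA was read by melRNA-seq, a single-end MiSeq method for medium-length RNA. The authors trimmed the 3' adaptor with Cutadapt, dropped reads without it, assigned the rest to names with RepeatMasker and deposited raw read counts per name, without normalization, 1 table per library, with no columns of other samples. Tool versions, the repeat library and the genome build were not given in the sources used here. In the untreated table, 1 line holds a name with no count and was skipped.

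From these counts, RPM and the ratio of TAP to untreated were computed for every name (Python 3.11.15, numpy 2.4.6, pandas 2.3.3, scipy 1.17.1, matplotlib 3.10.9), with an exact conditional binomial 95% interval. With 1 library per treatment no test across names was made, and a name was called higher or lower at 2-fold. Reads carry no molecular identifiers, so the intervals and the limit of 3 reads cover counting error only. A count of 0 was set to 3 reads for the ratio, and the lower limit was taken from the interval. Classes came from the start of each name: of 41 repeat names used, 33 carry a class in the spermatogonia tables of the series, the same in all 33. The box of a snoRNA came from its name (SNORA, H/ACA; SNORD or SNORND, C/D). Lengths and sequences came from GENCODE M21, by symbol. The interval was tested on simulated counts.

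Named are, per class, the 3 names with most reads in each library, the 5 highest and 5 lowest ratios among names with 100 or more reads (20 or more where fewer than 10 names reach 100), and lists of capped snRNAs, polymerase III RNAs, tRNA families with introns, SINE, LINE and LTR groups. The names and lists were chosen with earlier results of these data known. Alternatives changed the denominator, the minimum, the fold, the treatment of zeros, the merging of names and the interval.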

Additional observations from a re-analysis of the deposited data

How the results depend on the processing

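Values below are those that left their place under an alternative: counts that changed by more than 1.5 times, and ratios that left their counting interval. Where an alternative rescales or drops names, that construction makes the change. Per listed read, which multiplies every ratio by 1.84, the number of higher names was 5 (snoRNA), and those of lower names were 4 (tRNA), 0 (LINE) and 1 (LTR). Median ratios were 0.874 (all names), 0.332 (snoRNA), 13.5 (snRNA), 7.13 (scRNA), 3.33 (tRNA), 5.79 (SINE), 1.27 (LINE) and 0.734 (LTR). Ratios of summed reads were 0.232 (snoRNA), 20.3 (snRNA), 7.58 (scRNA), 1.52 (tRNA), 4.51 (SINE), 2.25 (LINE) and 1.55 (LTR). Per sequenced read, with the library totals of the study (times 1.62), the number of higher names was 4 (snoRNA). The numbers of lower names were 4 (tRNA) and 2 (LTR). Median ratios were 0.766 (all names), 0.291 (snoRNA), 11.8 (snRNA), 6.25 (scRNA), 2.92 (tRNA), 5.07 (SINE), 1.12 (LINE) and 0.643 (LTR). Ratios of summed reads were 0.203 (snoRNA), 17.8 (snRNA), 6.64 (scRNA), 1.34 (tRNA), 3.95 (SINE), 1.97 (LINE) and 1.36 (LTR). Per listed read without the snRNA and snoRNA names (times 0.969), the number of lower names was 1 (SINE). Ratios of summed reads were 0.122 (snoRNA), 10.7 (snRNA) and 0.802 (tRNA). With the median ratio of names with 20 reads in each library set to 1 (times 3.24), the numbers of higher names were 113 (all names), 15 (snoRNA), 51 (tRNA) and 6 (LINE). The numbers of lower names were 66 (all names), 64 (snoRNA), 0 (tRNA), 0 (LINE) and 1 (LTR). Median ratios were 1.54 (all names), 0.583 (snoRNA), 23.8 (snRNA), 12.5 (scRNA), 5.86 (tRNA), 10.2 (SINE), 2.24 (LINE) and 1.29 (LTR). Ratios of summed reads were 0.408 (snoRNA), 35.7 (snRNA), 13.3 (scRNA), 2.68 (tRNA), 7.93 (SINE), 3.95 (LINE) and 2.72 (LTR). The medians over all names, LINE names and LTR names thus passed to the other side of 1, as did the summed ratios of tRNA and LTR reads. The LINE median and these summed ratios also lay above 1 per listed read and per sequenced read. With the median ratio set to 1, so did ERVB4_1B-I_MM-int (1.37), ERVB4_1B-LTR_MM (1.22), MT-int (1.02), SNORD88 (1.57) and chr9.trna961-GluTTC (1.11), each lower by 2-fold or more in RPM. At a minimum of 50 reads, the numbers of higher names were 40 (all names), 1 (snoRNA), 14 (tRNA), 0 (LINE) and 0 (LTR), and those of lower names were 3 (tRNA), 0 (LINE) and 2 (LTR). At 100 reads, the numbers of higher names were 32 (all names), 1 (snoRNA), 11 (tRNA), 10 (SINE), 0 (LINE) and 0 (LTR). The numbers of lower names were 3 (tRNA), 0 (LINE) and 1 (LTR). Median ratios were 0.280 (all names) and 10.5 (scRNA). At 5 reads, the numbers of higher names were 112 (all names), 13 (LINE) and 12 (LTR), and those of lower names were 17 (tRNA), 1 (SINE), 3 (LINE) and 14 (LTR). Median ratios were 0.781 (all names), 1.67 (LINE, again above 1) and 0.983 (LTR). At a fold of 1.5, the numbers of lower names were 1 (scRNA), 11 (tRNA), 1 (SINE) and 4 (LINE). At a fold of 4, the numbers of higher names were 1 (snoRNA), 7 (SINE) and 1 (LTR), and those of lower names were 85 (all names), 3 (tRNA), 0 (LINE) and 1 (LTR). Adding 0.5 to both counts, keeping names as deposited and taking the interval from the log ratio moved none of the 31 class results or the 87 ratios of named RNAs past these limits. Of the 87 ratios of named RNAs, 53 left their interval per listed read, 48 per sequenced read and 7 per listed read without the snRNA and snoRNA names. With the median ratio set to 1, 68 did so beside the 5 named above. No paired analysis was possible because each treatment has 1 library. For the same reason no library could be left out, and depth limits the LINE, LTR and rare tRNA names most.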

Other observations

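The RNA treated with 5' polyphosphatase (20 U for 0.5 h), an enzyme that acts on triphosphates and leaves caps, was read in 1 library and is set beside the others without a comparison, since it shares the untreated library. Its levels, in reads per 1000000 reads of 5.8S rRNA, were 9418 for U5, where the untreated and TAP libraries had 10508 and 258017. For U1a1 the untreated, TAP and 5' polyphosphatase libraries had 813, 5955 and 1490.4, and for U7 60.1, 728 and 48.1. In these units the order differed for 5S rRNA, at 10100.5, 41821 and 72501, and for the tyrosine tRNA gene chr5.trna109, at 3.16, 729 and 1120.2. However, 5.8S rRNA took 19.2% of the listed reads after 5' polyphosphatase, so the scales part. Per 1000000 listed reads, 5S rRNA had 2750, 20993 and 13943 and chr5.trna109 0.861, 366 and 215. On that scale both were highest after TAP, like U1a1 (221, 2989 and 287). In RPM, B2_MM2 had 215, 675 and 2236 (58.6, 339 and 430 per 1000000 listed reads). The selenocysteine tRNA had 712, 1489 and 875 RPM. These came from 225, 798 and 182 reads, out of 1160933, 1067851 and 1081523 listed reads. Per listed read it was lower after 5' polyphosphatase than without enzyme, so that order depends on the scale. The snoRNAs SNORD55 and SNORND104 had 331161, 19979 and 488615, and 2705, 3985 and 3692 RPM. Per 1000000 listed reads they had 90176, 10029 and 93969, and 736, 2000 and 710.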
